A study of Homo sapiens with 4 samples.

Results

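The genes that attach and remove ISG15 and FAT10, a pair of ubiquitin-like proteins, were examined for open chromatin in HK1 cells, a human nasopharyngeal carcinoma line. The set held 9 genes chosen by name, and its regions were all ATAC-seq peaks that overlapped the gene body, as annotated by GENCODE on GRCh38, or the 10 kb upstream of it. Such peaks merged into 20 regions, of 93211 over all lists, and 8 of the 9 genes had at least 1. ATAC-seq marks accessible DNA by where a transposase can cut it, and each library was deposited as 1 list of peaks. The 4 libraries were wild-type HK1 cells without treatment (WT), WT cells given IFN-γ (WT-IFN-γ), HK1 cells edited with a CRISPR guide against FLI1 (labelled sgFLI1, here FLI1-KO) and FLI1-KO cells given IFN-γ (FLI1-KO-IFN-γ). IFN-γ was given for a day according to the study, and its dose is not given in the sources used here. Whether the FLI1-KO cells were clonal is not stated. With 1 library per group no test between groups was possible, and each interval of a pileup or ratio below is a 95% interval for counting error only. Fewer cells with an open site and less opening per cell cannot be told apart in these bulk libraries.

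ISG15 and FAT10 resemble ubiquitin and are joined to target proteins by the same kind of relay: an E1 enzyme activates the modifier, an E2 enzyme carries it and an E3 ligase places it on the target. For ISG15 the relay runs from UBA7 to UBE2L6 to HERC5, the main human ISG15 ligase, with HERC6 a close relative of that ligase, and the protease USP18 takes ISG15 off again. FAT10, the product of UBD, is activated by UBA6 and carried by UBE2Z, which also serve ubiquitin. Most genes of the ISG15 relay are classical interferon-induced genes, and UBD is known to respond to IFN-γ together with TNF. FLI1 is a transcription factor of the ETS family.

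The list of the WT library had 59629 peaks, that of WT-IFN-γ 67470, that of FLI1-KO 63203 and that of FLI1-KO-IFN-γ 59923. The height of each peak is given as its pileup, the number of sequenced tags stacked at the summit, and to compare libraries it was divided by the background tag density of the library, which ranged from 6.86 to 8.84 tags per kb. Over all regions shared by the lists compared, the median ratio so obtained was 0.959 for IFN-γ over untreated in WT and 0.895 in FLI1-KO. The latter is a shift of -0.16 on the log2 scale that applies to every FLI1-KO ratio with IFN-γ below. Of 9 epithelial marker genes, 5 had a peak within 1 kb of the TSS in every list (KRT8, KRT18, EPCAM, SFN and CLDN4). KRT14 and TP63 had none within 3 kb in any list, while KRT5 and CDH1 had none within 1 kb but within 3 kb had one in 4 and 3 lists. Among markers of blood, endothelial and stromal cells, CD14 had such a peak in all 4 lists, CDH5 in 2, COL1A1 in 1 (in all 4 within 3 kb, with 132 to 172 tags), and PTPRC, CD3E, CD8A and PECAM1 in none. What part other cells had in any difference was not tested. The total sequencing depth is unknown, because the files hold peaks and no read totals.

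The reference sequence is shown at 6 of the regions. Of these, 5 hold the letters GAAANNGAAA, a short form of the element bound by interferon regulatory factors (IRFs). The UBA7 promoter was open with IFN-γ without holding them. The 6 were picked with these letters in view and do not give the share of regions that hold them. All are read from GRCh38, 5′ to 3′ on the strand of the gene, and capitals mark every match to those letters on either strand, overlapping ones included (a match on the opposite strand reads TTTCNNTTTC). The positions are chr1:1013354-1013429 on the plus strand for ISG15, chr4:88456964-88457084 on the plus strand for HERC5, chr4:88379353-88379451 on the plus strand for HERC6, chr11:57566276-57566366 on the minus strand for UBE2L6, chr17:48915926-48916016 on the plus strand for UBE2Z and chr3:49814009-49814099 on the minus strand for UBA7.
ISG15 promoter: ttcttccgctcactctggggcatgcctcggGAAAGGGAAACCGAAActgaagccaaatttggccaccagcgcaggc
HERC5 promoter: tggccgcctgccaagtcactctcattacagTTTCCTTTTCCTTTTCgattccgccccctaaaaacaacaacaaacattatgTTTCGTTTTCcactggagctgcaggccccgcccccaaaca
HERC6 intron 1: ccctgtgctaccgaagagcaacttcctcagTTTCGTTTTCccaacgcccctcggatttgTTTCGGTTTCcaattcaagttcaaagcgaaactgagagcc
UBE2L6 intron 1: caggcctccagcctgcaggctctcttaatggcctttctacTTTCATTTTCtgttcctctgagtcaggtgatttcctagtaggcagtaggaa
UBE2Z intron 3: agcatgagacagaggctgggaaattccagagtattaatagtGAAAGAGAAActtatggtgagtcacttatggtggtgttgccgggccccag
UBA7 promoter: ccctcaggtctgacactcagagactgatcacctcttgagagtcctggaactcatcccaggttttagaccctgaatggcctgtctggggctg

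The 9 genes together had 10 peaks in untreated WT, 19 in WT-IFN-γ, 13 in FLI1-KO and 11 in FLI1-KO-IFN-γ. The number of peaks thus rose with IFN-γ in WT and not in FLI1-KO. The whole lists moved in the same directions, from 59629 to 67470 peaks in WT and from 63203 to 59923 in FLI1-KO. Of the 20 merged regions, 10 were in all 4 lists, as were 43.9% of all regions, and 6 were in WT-IFN-γ alone (1 at ISG15, 2 at UBE2L6, 2 at HERC6 and 1 at UBE2Z), as were 11.6% of all regions. A further 2 regions were in WT-IFN-γ and FLI1-KO (ISG15 and HERC6), 1 was in both IFN-γ lists (UBA7) and 1 was in FLI1-KO alone (UBE2Z), patterns that held 1.80%, 1.74% and 8.66% of all regions. No peak overlapped the window of UBD in any list.

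**Figure D1:**
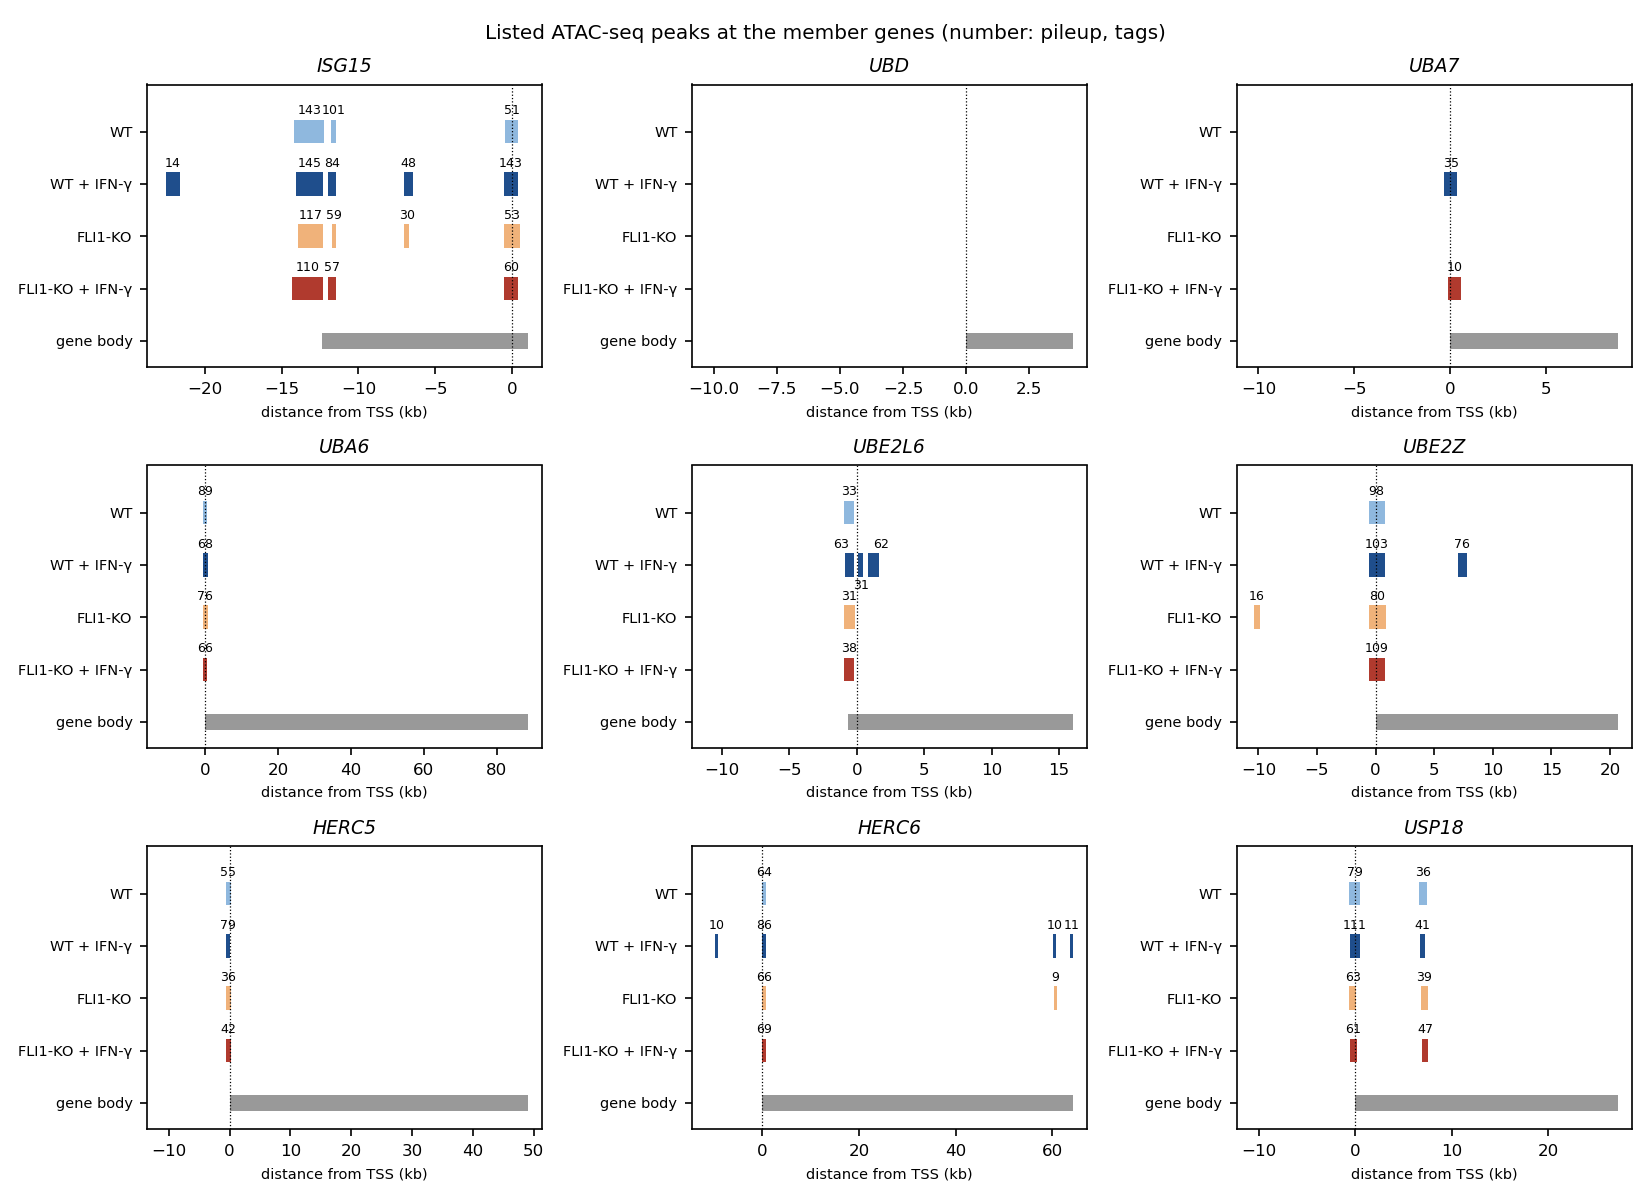
Peaks of each library (rows) over the 9 genes, by distance from the TSS in kb along the direction of transcription, with the pileup in tags printed at each peak and the annotated gene body in grey. WT + IFN-γ had the most peaks at ISG15, UBE2L6 and HERC6, and the UBD panel is empty.

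In WT, 9 of the 19 peaks at these genes in the WT-IFN-γ list had no overlapping peak without IFN-γ, against 25.2% of all peaks in that list. None of the 10 WT peaks was absent with IFN-γ, against 15.9% of all. In FLI1-KO, 1 of the 11 peaks with IFN-γ was absent without it (UBA7), against 18.0% of all, and 3 of the 13 peaks without IFN-γ were absent with it (ISG15, HERC6 and UBE2Z), against 22.2%. The share that appeared in WT was 47.4% (Wilson interval 27.3 to 68.3, above the 25.2% of all peaks). In FLI1-KO the intervals of the share that appeared (1.62 to 37.7) and of the share that disappeared (8.18 to 50.3) both held the background. These intervals treat peaks as independent, though several lie at the same gene and each list is 1 library. They therefore cannot decide whether a share differs from the background. When every list was limited to a −log10 q of at least 5, the peaks that appeared with IFN-γ numbered 5 of 15 in WT, against 19.3% of all, and 0 of 10 in FLI1-KO, against 10.6%. The other WT peaks that appeared were thus weak ones. No interval was computed at this limit, so whether the share in WT still exceeded the background was not tested.

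Between genotypes without IFN-γ, 3 of the 13 FLI1-KO peaks had no WT peak (again ISG15, HERC6 and UBE2Z), against 25.3% of all, and none of the 10 WT peaks lacked a FLI1-KO peak, against 21.4%. With IFN-γ, 8 of the 19 WT-IFN-γ peaks had no FLI1-KO-IFN-γ peak, against 29.0% of all. None of the 11 FLI1-KO-IFN-γ peaks lacked a WT-IFN-γ peak, against 19.8%. These 4 comparisons share libraries and are not independent of each other.

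ISG15, the modifier itself, had the highest ratio with IFN-γ in WT of the regions present in every list. In FLI1-KO 4 other regions of the set had a higher one. The pileup at its promoter (chr1:1012974-1014040) was 51 tags in the WT library, 143 in WT-IFN-γ, 53 in FLI1-KO and 60 in FLI1-KO-IFN-γ. WT-IFN-γ stood above the other 3 libraries, whose counting intervals overlapped. Divided by tag density, the levels were 16.2 in WT-IFN-γ, 8.75 in FLI1-KO-IFN-γ, 7.65 in FLI1-KO and 6.34 in WT. The ratio with IFN-γ was 2.55 (1.84 to 3.59) in WT and 1.14 (0.777 to 1.69) in FLI1-KO, so the WT ratio was 2.23 times the FLI1-KO ratio (1.37 to 3.64). With IFN-γ the FLI1-KO level was 0.541 of the WT level (0.393 to 0.736), and without IFN-γ the ratio of FLI1-KO to WT was 1.21 (0.805 to 1.81), an interval that holds 1. For scale, the middle 95% of all shared regions ranged from 0.639 to 1.82 for the WT ratio with IFN-γ, which ISG15 exceeded, and from 0.471 to 1.78 for FLI1-KO against WT with IFN-γ, within which ISG15 lay. The summit lay 129 bp upstream of the TSS in WT-IFN-γ, 75 bp upstream in WT and 47 bp upstream in both FLI1-KO libraries. The overlapping pair of IRF matches shown in capitals is centred 109 and 103 bp upstream, and another match lies 311 bp upstream.

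The annotated ISG15 gene also has a TSS farther upstream (1001138), so 2 further regions lie in its gene body. The first of them, 6822 bp upstream of the main TSS and 5530 bp downstream of the other (chr1:1006486-1007061), had a pileup of 48 tags in WT-IFN-γ and 30 in FLI1-KO. It was not listed in WT or in FLI1-KO-IFN-γ, where a peak would have been listed from 21 and 18 tags. It thus appeared with IFN-γ in WT and disappeared with IFN-γ in FLI1-KO, and its summit was at the same base in both lists that held it. It has no IRF match and 1 match to TGANTCA, the element bound by AP-1, 84 bp from the summit. A weak peak of 14 tags in WT-IFN-γ alone (chr1:990944-991904) has 4 IRF matches, and 10.6% of its length recurs elsewhere in the genome at 95% identity or more.

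The upstream ISG15 TSS lies close to the promoter of HES4, a transcription factor gene of the HES family. A region that spans that ISG15 TSS, with summits nearer to the HES4 TSS (chr1:999158-1001257), had 143 tags in untreated WT, 145 in WT-IFN-γ, 117 in FLI1-KO and 110 in FLI1-KO-IFN-γ, for a ratio with IFN-γ of 0.923 in WT and 0.95 in FLI1-KO. Its neighbour in the ISG15 gene body, 615 to 790 bp downstream of the upstream TSS (chr1:1001515-1002056), had 101, 84, 59 and 57 tags in the same order. The latter was lower in FLI1-KO than in WT without IFN-γ (ratio 0.678, 0.483 to 0.944). That ratio lay inside the middle 95% of all shared regions (0.566 to 2.11). With IFN-γ over untreated, the ratio of the latter region was 0.757 (0.560 to 1.02) in WT and 0.976 (0.666 to 1.43) in FLI1-KO. Neither had an IRF match, and the interval of each ratio with IFN-γ held 1.

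UBD, which encodes FAT10, lies on the minus strand of chromosome 6 (29555515 to 29559732) and had no peak in its window in any list. A peak at the library background would have been listed from 8 tags in WT and WT-IFN-γ and from 7 tags in both FLI1-KO libraries, so opening below those levels was not detectable. Just past the far end of the gene, outside the window and 6.6 to 7.0 kb from the TSS, a peak had 21 tags in WT-IFN-γ, 8 in FLI1-KO and 11 in FLI1-KO-IFN-γ. WT had none there. The nearest TSS to this peak was that of another gene, OR2I1P, 2322 to 2733 bp away.

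UBA7, the E1 of ISG15, had a promoter peak only in the lists with IFN-γ. The pileup was 35 tags in WT-IFN-γ, with the summit 101 bp upstream of the TSS, and 10 in FLI1-KO-IFN-γ, with the summit 424 bp downstream in exon 2 (chr3:49813363-49814272 for the merged region). In WT and FLI1-KO a peak would have been listed from 12 and 11 tags. In WT cells the level with IFN-γ was therefore at least 2.65-fold higher than without, whereas in FLI1-KO the 10 tags lay below the value from which the untreated library would have listed a peak and set no bound. The FLI1-KO-IFN-γ peak was no longer counted at a −log10 q of at least 5. The FLI1-KO-IFN-γ summit lay outside the WT-IFN-γ peak, so no ratio between these libraries is given. The region holds no match to the IRF, ETS or AP-1 letters.

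UBA6, the E1 of FAT10, had 89 tags in untreated WT, 68 in WT-IFN-γ, 76 in FLI1-KO and 66 in FLI1-KO-IFN-γ at its promoter (chr4:67700445-67701738). It was the only promoter of the set with a WT ratio whose interval lay below 1, at 0.695 (0.50 to 0.964). That interval held the median WT ratio of all shared regions, 0.959, and that of shared regions within 5 Mb, 0.928. In FLI1-KO the ratio was 0.878 (0.621 to 1.24), and the WT ratio was 0.792 of it (0.502 to 1.25). The region has 1 ETS match (CCGGAAGT), 564 bp upstream of the TSS.

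UBE2L6, the E2 of ISG15, had 2 regions downstream of its TSS that were listed in WT-IFN-γ alone. The stronger lay in intron 1, 1329 bp downstream of the TSS (chr11:57566033-57566812), and had 62 tags in WT-IFN-γ and no peak in the other 3 lists. Scaled from the WT-IFN-γ local background of 11.9 tags, these would have listed one from 24 tags in WT and 21 in both FLI1-KO libraries. The WT-IFN-γ level was thus at least 2.35-fold higher than WT and at least 2.29-fold higher than FLI1-KO-IFN-γ. At the upstream region of the gene the other libraries had local backgrounds of 3.54 to 4.92 tags, so their listing levels here may have been lower. Its summit lies 22 bp from the IRF match and 38 bp from an AP-1 match, and both stand in the sequence above.

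A weaker region in the same intron, 323 bp downstream of the UBE2L6 TSS (chr11:57567196-57567566), had 31 tags in WT-IFN-γ alone, at least 1.18-fold higher than WT, with an IRF match 30 bp from its summit. Upstream, the region chr11:57567836-57568602 includes a further annotated TSS of the gene and had 33 tags in untreated WT, 63 in WT-IFN-γ, 31 in FLI1-KO and 38 in FLI1-KO-IFN-γ. Its ratio with IFN-γ was 1.74 (1.12 to 2.73) in WT and 1.24 (0.751 to 2.06) in FLI1-KO. The WT ratio lay inside the middle 95% of all shared regions (0.639 to 1.82). The interval of the WT ratio over the FLI1-KO ratio, 1.40 (0.744 to 2.65), held 1, so a difference in response at this region was not detectable at this depth. No IRF match lies in it.

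UBE2Z, the E2 of FAT10, had 98 tags in untreated WT, 103 in WT-IFN-γ, 80 in FLI1-KO and 109 in FLI1-KO-IFN-γ at its promoter (chr17:48907803-48909254). The ratio with IFN-γ was 0.957 (0.718 to 1.27) in WT and 1.38 (1.02 to 1.86) in FLI1-KO, where the middle 95% of shared regions ended at 1.29. With IFN-γ, FLI1-KO was 1.36 times WT (1.03 to 1.80), inside the middle 95% of all shared regions for that comparison (0.471 to 1.78). This was the opposite order to that at the ISG15 promoter.

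Inside UBE2Z, a region in intron 3, 7585 bp downstream of the TSS (chr17:48915416-48916222), had 76 tags in WT-IFN-γ and no peak in the other lists, which would have listed one from 15 tags in WT and 13 in both FLI1-KO libraries. The WT-IFN-γ level was at least 4.61-fold higher than WT and at least 4.54-fold higher than FLI1-KO-IFN-γ, the highest such bounds of the set. Its summit lies 21 bp from the IRF match and 5 bp from an AP-1 match (tgagtca in the sequence above). It stood higher than 88.4% of the WT-IFN-γ peaks by q-value. Upstream, 10256 bp from the TSS, a peak of 16 tags was listed in FLI1-KO alone (chr17:48898055-48898505).

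HERC5, the ISG15 ligase, had 55 tags in untreated WT, 79 in WT-IFN-γ, 36 in FLI1-KO and 42 in FLI1-KO-IFN-γ at its promoter (chr4:88456501-88457398). Both WT libraries stood above both FLI1-KO libraries. The ratio with IFN-γ was 1.31 (0.915 to 1.88) in WT and 1.18 (0.737 to 1.89) in FLI1-KO, and the ratio of FLI1-KO to WT was 0.759 (0.485 to 1.18) without IFN-γ and 0.685 (0.459 to 1.01) with it. All 4 intervals hold 1. The region has 3 IRF matches, centred 121, 115 and 70 bp upstream of the TSS, the FLI1-KO summit lay 74 bp upstream and the other summits 199 to 277 bp upstream. The far 29.5% of the region recurs elsewhere in the genome at 95% identity or more and all summits lie outside that part; what the mapping filter did there was not tested.

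HERC6, whose gene lies next to HERC5, had 64 tags in untreated WT, 86 in WT-IFN-γ, 66 in FLI1-KO and 69 in FLI1-KO-IFN-γ in a region that spans its TSS and the start of intron 1 (chr4:88378722-88379540). The ratio with IFN-γ was 1.22 (0.875 to 1.72) in WT and 1.06 (0.743 to 1.5) in FLI1-KO, so neither differed from 1 beyond counting error. Its IRF matches lie 535 and 564 bp downstream of the TSS. Its other peaks were weak, with 9 to 11 tags, and 2 of the 3 regions were in WT-IFN-γ alone while the other, in intron 20, had 10 tags in WT-IFN-γ and 9 in FLI1-KO.

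USP18, the protease that removes ISG15, had 79 tags in untreated WT, 111 in WT-IFN-γ, 63 in FLI1-KO and 61 in FLI1-KO-IFN-γ at its promoter (chr22:18149497-18150711). The ratio with IFN-γ was 1.28 (0.95 to 1.73) in WT and 0.978 (0.677 to 1.41) in FLI1-KO, and the WT ratio was 1.31 times the FLI1-KO ratio (0.829 to 2.06). With IFN-γ, the FLI1-KO level was 0.708 of the WT level (0.509 to 0.976). That value lay inside the middle 95% of all shared regions for this comparison (0.471 to 1.78). The summit was 133 bp upstream of the TSS in WT-IFN-γ, against 264, 298 and 265 bp in WT, FLI1-KO and FLI1-KO-IFN-γ.

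A second USP18 region, in intron 1 and 7111 to 7155 bp downstream of the TSS (chr22:18156764-18157758), had 36 tags in untreated WT, 41 in WT-IFN-γ, 39 in FLI1-KO and 47 in FLI1-KO-IFN-γ. Here the FLI1-KO libraries were the higher ones after division by density, and the ratio of FLI1-KO to WT with IFN-γ was 1.48 (0.951 to 2.3). It has 2 AP-1 matches and no IRF match. Neither USP18 region recurs elsewhere in the genome at 95% identity over 100 bases.

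**Figure D2:**
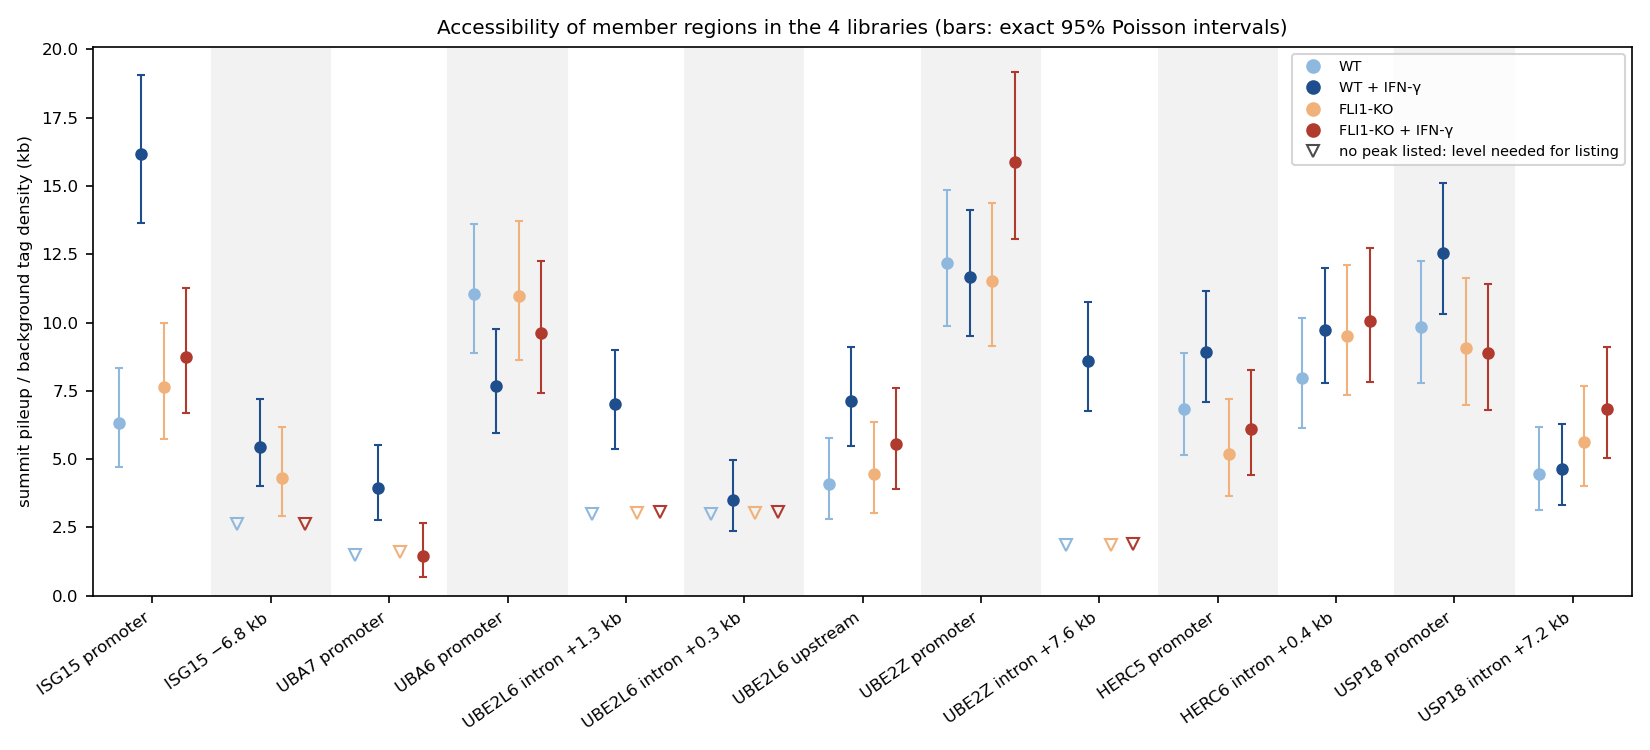
Summit pileup divided by the background tag density of the library (vertical axis, kb) for 13 regions, with exact 95% Poisson intervals; open triangles give the level from which a library without a peak would have listed one. WT + IFN-γ stands alone at the ISG15 promoter and in the introns of UBE2L6 and UBE2Z, while FLI1-KO + IFN-γ is the highest library at the UBE2Z promoter.

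Over the 10 regions present in every list, the median ratio with IFN-γ was 1.13 in WT (0.695 to 2.55), with 6 above 1 and 4 below, against 0.959 for all shared regions. In FLI1-KO the median was 1.10 (0.878 to 1.38), again with 6 above 1 and 4 below, against 0.895. At least 1.5 times higher with IFN-γ were 2 of 10 in WT (ISG15 and UBE2L6), against 5.03% of all, and 0 of 10 in FLI1-KO, against 0.528%. With IFN-γ, 1 of 10 was at least 1.5 times lower in FLI1-KO than in WT (the ISG15 promoter), against 9.90% of all, and the median over the 10 was 0.924, against 0.961.

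**Figure D3:**
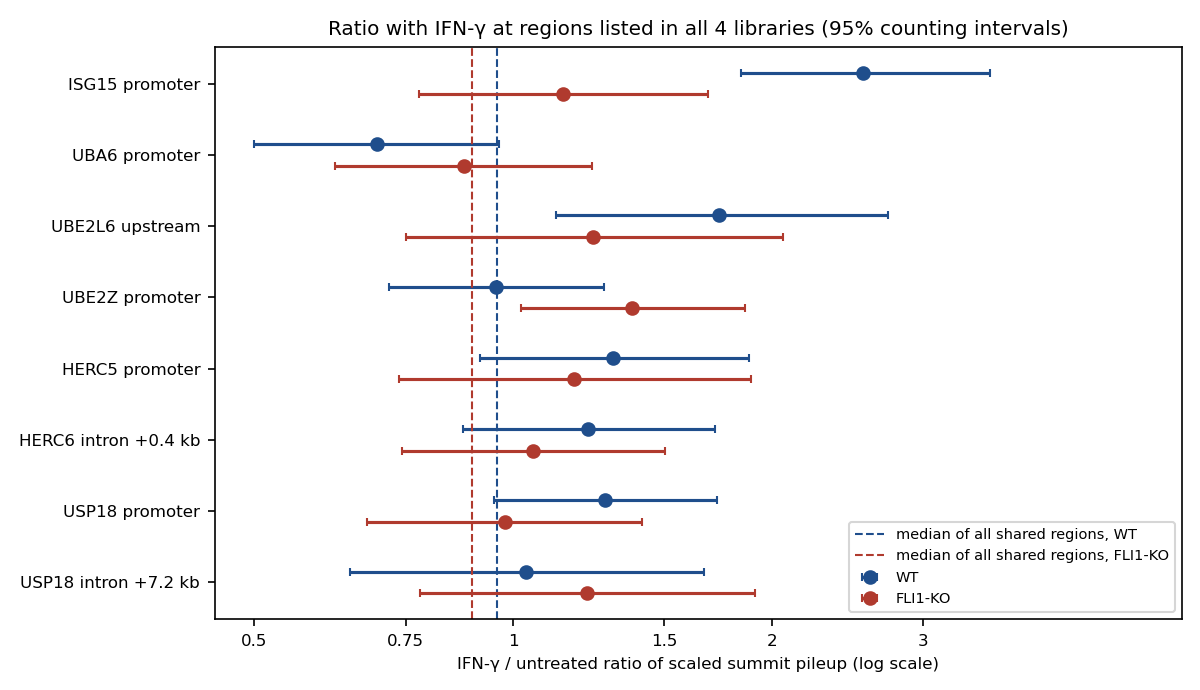
Ratio of IFN-γ to untreated (log scale) for 8 regions present in every list, in WT (blue) and FLI1-KO (red), with 95% counting intervals and the median of all shared regions dashed. The WT and FLI1-KO intervals are apart at the ISG15 promoter and overlap at the other 7 regions.

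The letters searched were GAAANNGAAA for IRF, CCGGAAGT for ETS and TGANTCA for AP-1, on both strands and with overlaps allowed, within 100 bp of each summit. The IRF letters were found at 1 of 10 summits of the set in untreated WT, 7 of 19 in WT-IFN-γ, 4 of 13 in FLI1-KO and 1 of 11 in FLI1-KO-IFN-γ. Among all peaks the shares were 2.35%, 5.60%, 2.24% and 2.67%. Of the 9 peaks that appeared with IFN-γ in WT, 4 had a match (1 at ISG15, 2 at UBE2L6 and 1 at UBE2Z), against 13.4% of all such peaks, and of the 10 shared with untreated WT, 3 had one. The AP-1 letters were found at 0, 4, 2 and 1 summits in the same order of libraries, with 21.9% to 24.3% of all peaks holding them. All 4 in WT-IFN-γ were among the 9 peaks that appeared with IFN-γ. Over the whole list, 23.4% of the peaks that appeared held them, against 23.5% of all WT-IFN-γ peaks. The ETS letters were at none of the summits in any list, against 1.28% to 1.42% of all peaks. The IRF counts depended on the distance allowed. Within 200 bp they were 4 of 10 in WT, 9 of 19 in WT-IFN-γ, 5 of 13 in FLI1-KO and 4 of 11 in FLI1-KO-IFN-γ. The libraries were then closer to each other, at 36.4% to 47.4%, against 4.97% to 8.88% of all peaks.

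**Figure D4:**
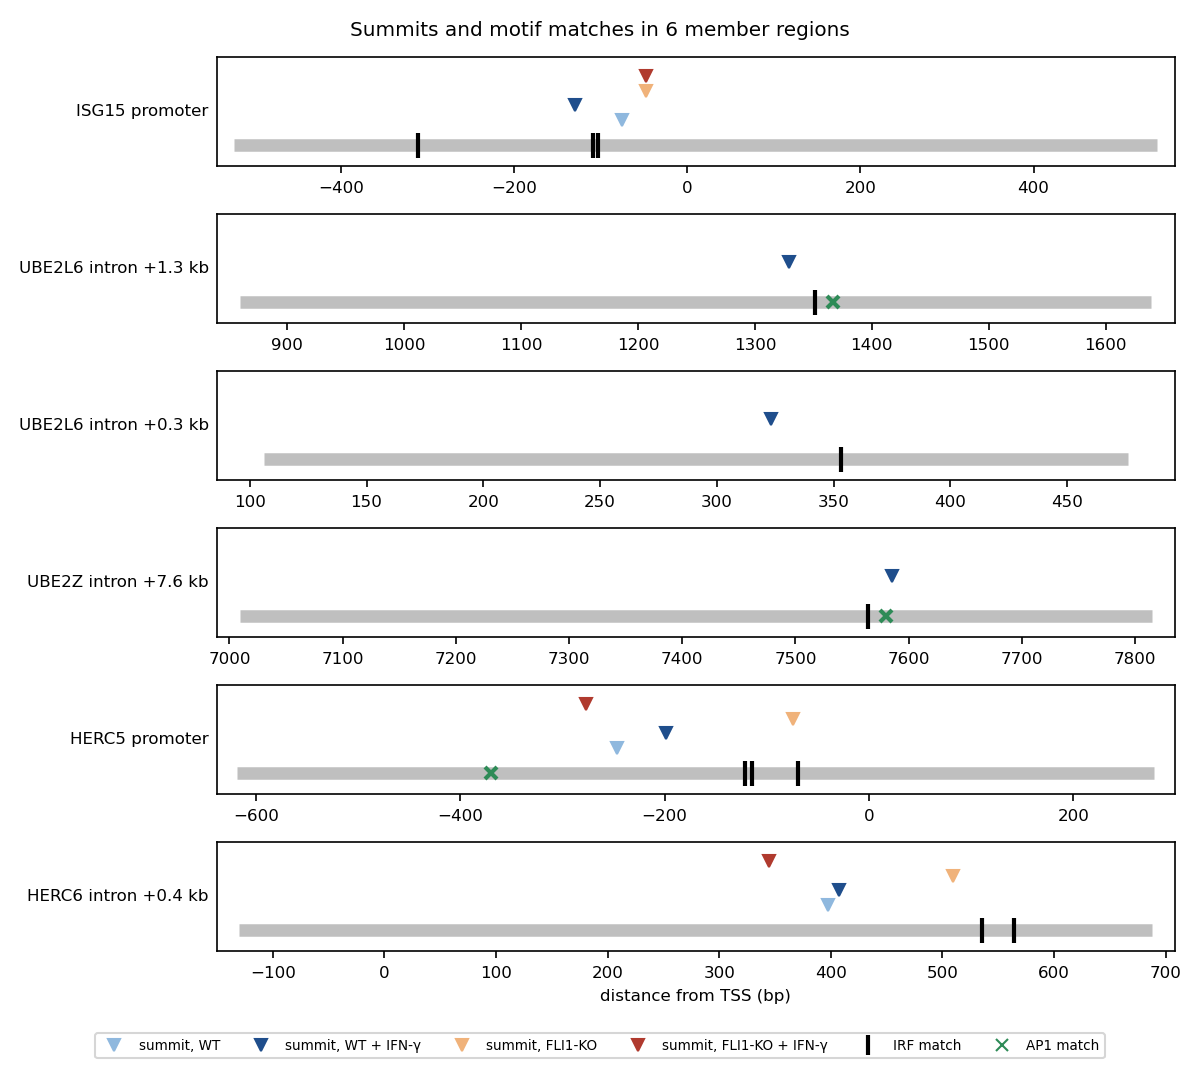
Positions of the summits of each library (triangles) and of the IRF (black bars) and AP-1 (green crosses) matches along 6 regions that hold an IRF match, in bp from the TSS. The WT + IFN-γ summit lies 22 to 30 bp from a match in both UBE2L6 intron regions and 21 bp from one at UBE2Z.

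Other genes of ubiquitin-like conjugation were compared at the TSS. Of 27 genes for other modifiers and their E1 and E2 enzymes (such as NEDD8, UBA1 and UBE2L3), 26 had a peak within 1 kb of the TSS in every list, and none gained or lost one with IFN-γ in either genotype. Of 18 ligases, proteases and receptors tied to ISG15 or FAT10 or related to HERC5 (such as HERC3, TRIM25 and NUB1), 14 had one in every list and none gained or lost one. The median ratio with IFN-γ was 0.942 and 0.958 for these lists in WT and 0.935 and 0.915 in FLI1-KO. At the ISG15 and FAT10 genes 7, 8, 7 and 8 of 9 had a peak there in the 4 lists. UBA7 and UBE2L6 gained one in WT and UBA7 in FLI1-KO. The gained UBE2L6 peak was weak (−log10 q 3.86), and the gene already had another within 1 kb in WT. The UBA7 peak in FLI1-KO-IFN-γ was weak too (−log10 q 1.86). The median ratio was 1.28 in WT and 1.14 in FLI1-KO over 7 genes.

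**Figure D5:**
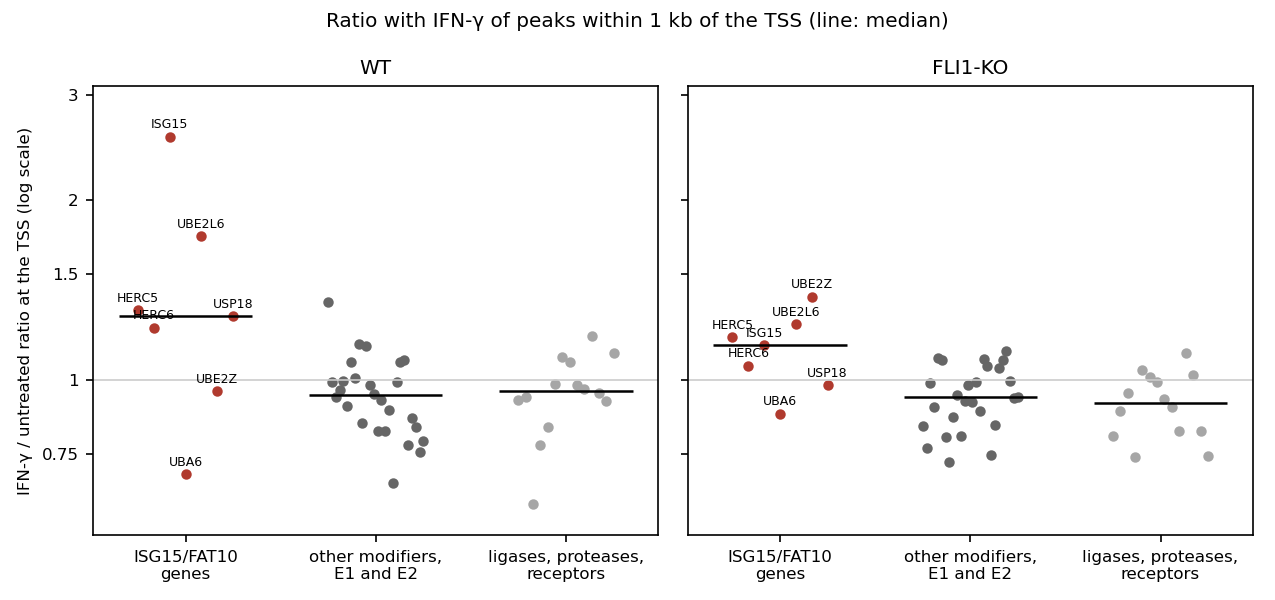
Ratio of IFN-γ to untreated (log scale) for peaks within 1 kb of the TSS in WT (left) and FLI1-KO (right), 1 point a gene, with the median of each list as a line. ISG15 and UBE2L6 lie above every gene of the other lists in WT, while UBA6 lies below their medians. The lowest gene of each other list in WT, at 0.673 and 0.620, lies lower still than UBA6.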

How the data were processed

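ATAC-seq had been performed on 4 HK1 libraries, 1 per group. Per the study's methods and the submitters' processing notes, reads were trimmed with Trimmomatic and aligned to GRCh38 with Bowtie2 (2.3.4.1), duplicates and alignments of low mapping quality were removed, and peaks were called with MACS2 (2.1.2). The methods also describe a filter for peaks that recur between replicates (IDR). Whether the deposited lists precede or follow it, whether they pool replicates, and whether tags were shifted for the transposase is not given in the sources used here. The authors deposited, for each peak, a score (not used here), a fold enrichment over local background (a ratio) and −log10 p and −log10 q values at the summit.

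Fold and −log10 p as deposited yielded the whole-number pileup and the local background of each peak (tolerance 0.01 in −log10 p, 100% of peaks). The lowest background over the shortest peak gave the tag density. Peaks were shared when they overlapped by 1 bp, and ratios were taken for regions with over 60 tags in both lists together. Intervals are exact Poisson for a pileup, exact conditional binomial for a ratio, and log-normal for a ratio of ratios; no molecular identifiers are described, so they cover counting error only. For a missing peak, the level needed for listing was computed from the local background of the library that had it, scaled by library background; a bound against it leaves out counting error.

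All 9 genes were named, with values for regions within 1 kb of the TSS or with −log10 q of at least 10 in a list; the other regions are summarised. The members and lists were chosen with earlier results of these data known. Annotation was GENCODE 44. Scripts used Python 3.11.15, scipy 1.17.1, samtools 1.23.1 and BLAST+ 2.17.0 and were tested on simulated data. A few items, among them 1 sequence, are not reported here.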

Additional observations from a re-analysis of the deposited data

Results flagged for a closer look

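No group had enough libraries to look for outlying samples, and the differences between genotypes below were not tested, since each group is 1 library. With IFN-γ the number of peaks at the 9 genes changed by 9 in WT cells, against -2 in FLI1-KO cells. By gene, the change was 2 in WT and -1 in FLI1-KO at ISG15, 3 and -1 at HERC6, and 1 and -1 at UBE2Z. Over all peaks, the lists also grew with IFN-γ in WT and shrank in FLI1-KO. The ratio with IFN-γ lay on opposite sides of 1 at the USP18 promoter, with 1.28 in WT and 0.978 in FLI1-KO, and at the UBE2Z promoter, with 0.957 and 1.38. Scaling by the median pileup of shared regions put the USP18 ratio in FLI1-KO at 1.07, and centring on shared regions within 5 Mb put it at 1.08 and the UBE2Z ratio in WT at 1.03, so these oppositions depended on the scaling.

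Outside the windows, the peak past the end of UBD, which lies nearer to the TSS of OR2I1P, had 21 tags in WT-IFN-γ and was not listed in WT.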

How the results depend on the processing

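No paired analysis was possible because each group has 1 library, and for the same reason none could be left out. Under the alternatives tried, 110 of 140 counts stayed within 1.5 times the reported one and all 120 region ratios within their interval. With −log10 q of at least 5 in every list, peaks that appeared with IFN-γ fell to 5 of 15 in WT and 0 of 10 in FLI1-KO. Of all peaks, 19.3% and 10.6% did so. WT-IFN-γ peaks absent from FLI1-KO-IFN-γ fell to 5 of 15. At 10 or more these counts were 4 of 14, 0 of 9 and 5 of 14. FLI1-KO peaks absent with IFN-γ and absent from WT were then 1 of 10 each, and WT peaks absent from FLI1-KO 1 of 10. Asking 5 of the peak alone gave 5 and 0 that appeared and 4 WT-IFN-γ peaks absent from FLI1-KO-IFN-γ. No other share of all peaks was computed at these limits, so those counts cannot be set against one. Sharing by summit position gave 1 FLI1-KO-IFN-γ peak absent from WT-IFN-γ. Scaling by median shared pileup gave 1 region at least 1.5 times higher with IFN-γ in FLI1-KO, 1 higher in FLI1-KO with IFN-γ and 1 lower without; centring within 5 Mb gave 2 lower in FLI1-KO without and 2 with IFN-γ, and background subtraction 1 lower without. IRF matches within 50 bp numbered 2 in FLI1-KO and 0 in FLI1-KO-IFN-γ, and within 200 bp 4 in WT and 4 in FLI1-KO-IFN-γ; AP-1 matches within 50 bp numbered 1 and 0, and within 200 bp 2 in WT and 2 in FLI1-KO-IFN-γ. Within 3 kb of the TSS, 1 gene of each other list gained a peak in WT and 1 of the ligase list in FLI1-KO. Why these moved was not tested. The lowest listed pileups, 7 to 8 tags, limit what an absent peak can show.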
